A study of Mus musculus with 9 samples.

Results

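The genes described here are those listed as different between SR-B1 KO embryos with an open cephalic neural tube (KO-NTD) and wild-type (WT) embryos. They were taken from the comparison sheet for these groups, which holds 789 genes of the 24330 named genes in the table of all genes. Each gene has 1 FPKM value per group (fragments scaled by transcript length and by the number of mapped fragments, so levels of different genes are per length), and the difference was computed as log2((KO-NTD + 0.1)/(WT + 0.1)). A positive value means a higher level in KO-NTD embryos. Every gene of the sheet carries the selection mark of the authors for this contrast, so being in the sheet is itself the result of their selection, and folds, counts and medians below describe the selected genes and are not tested again.

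Strand-specific poly-A RNA sequencing was performed on whole mouse embryos of the C57Bl/6J x 129S2 background at E9.5, from intercrosses of mice heterozygous for a Scarb1 null allele (Scarb1tm1Kri) whose dams ate control chow. Each group had 3 pools of 3 embryos: WT, KO-NTD, and KO-N, which are Scarb1-null embryos with a normally closed neural tube. All pools were labelled female. WT and KO-NTD embryos thus differed in genotype as well as in neural tube closure, and KO-N embryos shared the genotype of KO-NTD embryos. The whole embryo is a mixture of tissues, in which fewer cells of a type and less RNA per cell cannot be told apart. No value per pool was used, since the files analysed give 1 value per group. No spread between pools, and therefore no test, can be given. The KO groups have confidence bounds deposited with their FPKM values, printed here in parentheses. They describe the estimate of 1 group, and WT values in the sheet have none.

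SR-B1, encoded by Scarb1, is the receptor through which cells take up cholesterol and other lipids, vitamin E among them, from high-density lipoproteins (HDL). In the mouse embryo at this age it is found mainly in the yolk sac and in trophoblast giant cells, which face the maternal circulation. Neural tube closure turns the flat neural plate into the tube from which brain and spinal cord arise, and at this stage neurogenesis has begun, primitive red cells from the yolk sac circulate and the heart beats.

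Scarb1 itself (chr5:125277087-125341094, mm10) was listed at 17.1 FPKM in WT, at 3.13 (2.36 to 3.89) in KO-NTD and at 3.34 (2.52 to 4.16) in KO-N. Its log2 difference between KO-NTD and WT was -2.41, the second largest decrease among named genes that reached 1 FPKM, small RNA genes set aside, and the levels of the KO groups lay inside each other's bounds. Transcript was therefore low in both KO groups but not absent.

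Y-linked genes were detected in all groups although the pools are labelled female. Ddx3y was listed at 5.79 FPKM in WT and 3.02 in KO-NTD, Eif2s3y at 10.5 and 5.14, Kdm5d at 3.92 and 1.61, and Uty at 3.68 and 1.78. These 4 genes were lower in KO-NTD than in WT by log2 values between -1.23 and -0.92. In KO-N they were listed at 3.17, 5.69, 1.58 and 1.75 in the same order. Xist, transcribed from the inactive X chromosome of female cells, was at 58.3 in WT, 83.8 in KO-NTD and 73.8 in KO-N. These values go against the label, Y-linked levels were higher in WT than in both KO groups, and the part of this difference in the results below was not tested. On chromosome X, 25 of 495 expressed genes were listed higher (5.05%) and 9 lower (1.82%), beside 2.51% and 2.76% of all 13569 expressed genes. Genes with an average of 0.5 FPKM or more across KO-N and KO-NTD are called expressed.

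In KO-NTD embryos 367 genes were listed higher than in WT (1.51% of the table) and 422 lower (1.73%). Most of the differences were small in size. The median log2 value was 0.51 for the higher genes (quartiles 0.40 and 0.71) and -0.54 for the lower genes (quartiles -0.75 and -0.41). At least 2-fold were 25 of the 789 genes in the higher direction (3.17%) and 47 in the lower direction (5.96%), while 61.3% of the higher and 55.0% of the lower genes differed by less than 1.5-fold. Among these selected genes, smaller levels went with larger folds. The median size was 0.77 for the 140 genes under 1 FPKM in WT and 0.53 for 430 genes from 1 to under 10. It was 0.40 for 203 genes from 10 to under 100 and 0.35 for 16 genes at 100 or more. Genes at low levels need larger folds to be selected, so this order is not read as a result. The WT value lay outside the KO-NTD bounds for all genes that had bounds, 367 higher and 421 lower, which follows from how the sheet was selected. The bounds of genes at 1 FPKM or more reached a median of 18.3% of the value to each side for higher genes and 18.99% for lower genes.

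**Figure D1:**
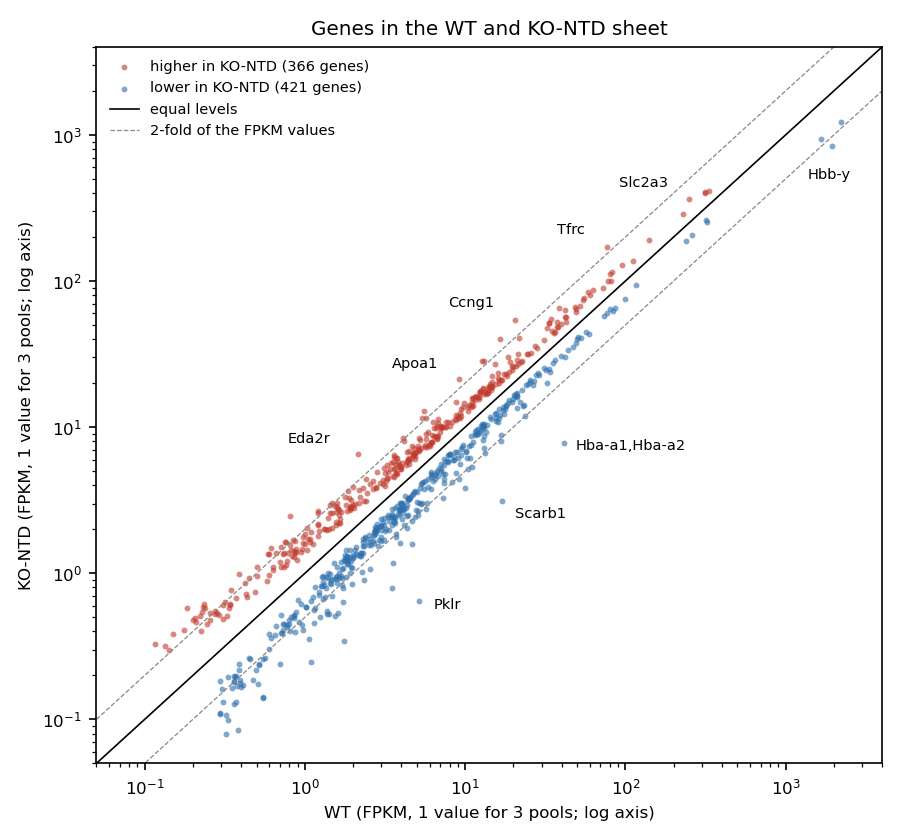
FPKM of each gene of the sheet in WT (x axis) and KO-NTD (y axis), both log axes, with higher genes in red and lower genes in blue. The solid line marks equal levels and the dashed lines 2-fold of the FPKM values, and genes at 0 in 1 group are left out. Most genes lie between the dashed lines, Scarb1, Pklr and Hba-a1,Hba-a2 fall far below, and Eda2r and Ccng1 lie above.

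The lower genes were headed by red cell genes, Scarb1 and neural genes. Among genes that reached 1 FPKM in 1 group, predicted and small RNA genes set aside, the largest decreases were those of Pklr (-2.80), Scarb1, the joined entry Hba-a1,Hba-a2 (-2.39, uncertain as described with the globins), Wfdc1 (-2.06), Csf2rb (-2.01), Csf2rb2 (-1.77), Rhag (-1.502), Nhlh1 (-1.44), Foxe3 (-1.42), Pantr1 (-1.35), Chrna3 (-1.34), Prdm8 (-1.31), Elavl3 (-1.29), Prdm12 (-1.28) and Kdm5d. The higher genes were headed by p53 targets and by genes of the visceral endoderm. The largest increases were those of Eda2r (1.56), Trib3 (1.5003), Ccng1 (1.41), Phlda2 (1.28), Cdkn1a (1.22), Apoa1 (1.22), Tfrc (1.15), Rbp4 (1.14), Ttr (1.09), Phlda3 (1.09), Amn (1.08), Fmr1nb (1.08), Fgg (1.07), Trap1a (1.04) and Apoc2,Apoc4-apoc2 (1.03). By FPKM difference the order was another. The globins Hbb-y (-1112 FPKM), Hba-x (-992.3) and Hbb-bh1 (-730.5) lost most, followed by the fatty acid desaturase Scd2 (-67.5) and the retinoic acid-binding Crabp1 (-57.2). Gains were largest for the glucose transporters Slc2a3 (113) and Slc2a1 (92.4), the transferrin receptor Tfrc (94.9), the cardiac actin Actc1 (87.9) and the myosin light chain Myl6 (79.0).

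Promoters of 5 genes that lead these groups are printed below, 250 bases before to 50 after the transcription start, from RefSeq on GRCm38.p6, so that the sequences can be read beside the levels: embryonic globins and Pklr for red cells, Elavl3 for neurons and Apoa1 for the visceral endoderm. The start of each equals the 5′ end of the deposited locus. Capitals mark matches to AGATAA, the motif known to bind GATA factors, CACCC, known to bind Krüppel-like factors, the E-boxes CAGCTG and CAGATG, and the TATA motif TATAAA, on either strand.
Hbb-y (chr7:103853158-103853457, minus strand): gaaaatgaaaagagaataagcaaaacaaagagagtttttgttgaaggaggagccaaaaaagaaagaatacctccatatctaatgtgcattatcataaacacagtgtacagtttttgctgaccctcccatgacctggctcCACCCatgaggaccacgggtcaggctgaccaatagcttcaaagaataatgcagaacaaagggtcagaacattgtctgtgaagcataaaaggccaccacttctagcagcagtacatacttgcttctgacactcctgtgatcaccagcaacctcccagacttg
Hba-x (chr11:32276350-32276649, plus strand): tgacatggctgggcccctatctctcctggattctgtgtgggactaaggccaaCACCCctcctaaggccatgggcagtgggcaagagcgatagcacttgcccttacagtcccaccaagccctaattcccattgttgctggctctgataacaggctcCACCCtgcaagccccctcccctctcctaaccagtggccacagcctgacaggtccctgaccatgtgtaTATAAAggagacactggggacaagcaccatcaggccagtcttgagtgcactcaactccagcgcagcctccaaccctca
Pklr (chr3:89135892-89136191, plus strand): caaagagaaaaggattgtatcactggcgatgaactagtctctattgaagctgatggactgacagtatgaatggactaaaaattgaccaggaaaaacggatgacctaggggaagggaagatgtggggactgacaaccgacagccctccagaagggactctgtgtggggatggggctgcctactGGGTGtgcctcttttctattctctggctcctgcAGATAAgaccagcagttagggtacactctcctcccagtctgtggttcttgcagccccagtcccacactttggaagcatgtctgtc
Elavl3 (chr9:22051974-22052273, minus strand): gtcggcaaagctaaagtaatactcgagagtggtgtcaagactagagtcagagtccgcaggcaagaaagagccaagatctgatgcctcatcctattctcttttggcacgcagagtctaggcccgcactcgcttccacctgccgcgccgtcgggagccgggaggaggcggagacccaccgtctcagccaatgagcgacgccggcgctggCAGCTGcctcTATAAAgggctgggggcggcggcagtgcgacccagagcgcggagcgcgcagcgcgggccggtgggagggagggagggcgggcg
Apoa1 (chr9:46228380-46228679, plus strand): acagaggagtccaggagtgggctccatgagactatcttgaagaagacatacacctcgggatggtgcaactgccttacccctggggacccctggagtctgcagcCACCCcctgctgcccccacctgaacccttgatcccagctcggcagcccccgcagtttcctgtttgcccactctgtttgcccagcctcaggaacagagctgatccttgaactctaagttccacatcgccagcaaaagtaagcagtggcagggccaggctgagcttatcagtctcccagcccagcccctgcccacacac
The Hbb-y window holds 1 CACCC, the Hba-x window 2 CACCC and 1 TATAAA, and the Pklr window 1 AGATAA and 1 CACCC, the latter read on the other strand as GGGTG. Elavl3 has 1 CAGCTG and 1 TATAAA in a window with 29 CpG dinucleotides, against 1 to 4 in the other 4. Apoa1 has 1 CACCC. Of the promoters of 10530 expressed genes, 6.07% hold AGATAA, 63.2% CACCC, 14.7% CAGCTG, 11.04% CAGATG and 6.99% TATAAA. A match is a description of the letters only. Since 595 of the 789 genes could be matched to a promoter, under the share needed, shares of motifs over the higher and lower genes are void and not given.

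Primitive red cell genes were mostly lower. These nucleated cells arise in the yolk sac, fill with embryonic globin and carry oxygen in the early embryo. Of 39 genes of the list in the table, 28 were in the sheet, 26 lower and 2 higher, with a median log2 value of -0.80. Their summed level was 6062 FPKM in WT and 3248 in KO-NTD. The 11 members outside the sheet, with no WT value, went both ways between the KO groups. Gata1 was at 2.84 FPKM in KO-N and 2.29 in KO-NTD and Nfe2 at 3.45 and 2.64. Tal1 was at 5.27 and 6.35 and Lmo2 at 11.95 and 12.76, all chosen after their values were seen.

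The embryonic globins carried most of that sum. Hbb-y was at 1956 FPKM in WT, with 1655 (1371 to 1939) in KO-N and 844.0 (702 to 983) in KO-NTD, with a log2 value of -1.21. Hba-x was at 2226 in WT, with 1762 in KO-N and 1233 in KO-NTD (-0.85). Hbb-bh1 was at 1672, 1203 and 941.5 (-0.83). In each of the 3 genes KO-N lay between WT and KO-NTD. The adult alpha globins Hba-a1 and Hba-a2, near-identical copies that share 1 entry in the sheet, were at 41.2 in WT and 7.75 in KO-NTD, and matched no entry of the table of all genes, which lists the copies separately. There Hba-a1, at another locus than that of the joined entry, was at 32.2 FPKM in KO-NTD and 42.2 in KO-N, and Hba-a2 at 40.1 and 77.6. All 4 of these values lie above the upper bound deposited with them (18.5 and 30.9 for Hba-a1, 19.9 and 39.1 for Hba-a2). The split of reads between the copies is therefore uncertain, and so is the -2.39 of the joined entry.

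Pklr, the pyruvate kinase of red cells and liver, showed the largest decrease, from 5.15 FPKM in WT to 0.651 (0.410 to 0.890) in KO-NTD. Its KO-N value was 1.07 (0.728 to 1.42), nearer to KO-NTD than to WT. Csf2rb, the common receptor chain for IL-3, IL-5 and GM-CSF, was at 3.48 in WT, with 1.77 in KO-N and 0.790 in KO-NTD, and its neighbour and close copy Csf2rb2 at 1.08, 0.391 and 0.247. Reads that fit both copies could be split between them, so their values are not independent. Rhag, the Rh-associated membrane glycoprotein, was at 3.54, 2.36 and 1.18. Icam4, a red cell adhesion molecule, was at 0.698, 0.680 and 0.240. The 2 higher members were Tfrc and, chosen after its values were seen, Samd3.

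Tfrc, the transferrin receptor that brings iron into cells, moved against its list. It was at 77.3 FPKM in WT, with 150.1 (127 to 174) in KO-N and 172.2 (146 to 198) in KO-NTD, with a log2 value of 1.15. The bounds of the KO groups overlapped. Of 25 heme and iron genes in the table, 9 were in the sheet. Slc40a1, the iron exporter ferroportin, was higher (3.26 to 5.47 FPKM, 0.73) as was Trf, transferrin (3.77 to 6.17, 0.70). Lower were Steap3, the ferrireductase of developing red cells (2.48 to 1.63), Fech, which inserts iron into heme (17.5 to 12.3), and Slc25a37, the mitochondrial iron importer (33.7 to 23.9).

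Neuronal genes were in the sheet only in the lower direction, in a list where 16 of 50 members were not in it. The list holds 34 members of 50, 34 lower and 0 higher, with a median of -0.65. Elavl3, an RNA-binding protein of newborn neurons, was at 2.33 FPKM in WT, with 2.44 (1.96 to 2.92) in KO-N and 0.897 (0.672 to 1.12) in KO-NTD. Nhlh1, a helix-loop-helix factor of early neurons, was at 1.61, 1.61 and 0.532, and its relative Nhlh2 at 0.974, 1.32 and 0.408. In these genes KO-N resembled WT, and KO-NTD stood apart. Neurod4, a proneural factor downstream of the neurogenins, was at 2.57 in WT, with 2.73 in KO-N and 1.08 in KO-NTD. Myt1 and St18, zinc finger factors of neuronal differentiation, were below 0.5 FPKM in every group, so their log2 values of -1.03 and -1.02 rest on low levels. Over the 34 genes the summed level was 220.3 FPKM in WT, with 212.3 in KO-N and 152.5 in KO-NTD.

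Proneural factors and Notch genes, which choose the cells that leave the progenitor pool, were lower in 11 of 28 genes and higher in 0, with a median of -0.71. Neurog2, which starts neuronal differentiation, was at 5.33 FPKM in WT, with 5.10 (4.04 to 6.16) in KO-N and 2.96 (2.30 to 3.63) in KO-NTD. Neurog1 was at 4.16, 4.48 and 2.13. These proneural genes shared a pattern, with KO-NTD below the other groups. Heyl, a Notch target, was at 1.48, 1.52 and 0.699. Atoh1 was at 0.295, 0.234 and 0.110, and Dtx4, a Notch regulator, at 22.8, 20.7 and 14.0.

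Neural progenitor genes were lower in 19 of 30 and higher in 0 (median -0.56). Sox2, a marker of the tube, lay near the edge of what the sheet lists, at 50.7 FPKM in WT and 41.6 in KO-NTD (-0.28). The more abundant Sox11 had 86.3 FPKM in WT and a log2 value of -0.41. Larger differences were seen in Zic1 and Zic4, neighbours on chromosome 9 active in the dorsal tube, with Zic1 at 16.7, 16.1 (13.5 to 18.7) and 8.83 (7.39 to 10.2) in WT, KO-N and KO-NTD and Zic4 at 1.15, 0.992 and 0.455. Pou3f3, a POU factor of the brain, was at 7.23, 7.53 and 3.27, and the neighbouring noncoding gene Pantr1 at 10.03, 9.45 and 3.86. Fabp7, the fatty acid-binding protein of radial glia, was at 13.3, 12.5 and 6.63. Gpm6b was at 4.93, 4.71 and 2.73 and Pou3f4 at 3.13, 3.52 and 1.69. The range within this list was thus from -0.28 to -1.17.

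Regional genes of the brain and spinal cord followed. Of 26 forebrain and eye genes, 12 were lower and 0 higher (median -0.52). Foxe3, needed for the lens, was at 1.54 FPKM in WT, with 1.10 in KO-N and 0.512 in KO-NTD, Lhx9 at 1.37, 1.61 and 0.553, Vax1, of the ventral forebrain, at 0.873, 0.823 and 0.394, and Six6, of the eye field, at 1.64, 1.596 and 0.928. Of 30 spinal cord and hindbrain genes, 10 were lower and 2 higher (median -0.80). Among the lower were Prdm8 (1.72 to 0.634), Prdm12 (1.41 to 0.525) and Prdm13 (1.14 to 0.562), zinc finger factors of tube domains, with Olig3 (4.90 to 2.41) and Msx3 (8.30 to 4.23) of the dorsal tube. Egr2, which marks rhombomeres of the hindbrain, was higher, at 0.9999 FPKM in WT, with 0.919 in KO-N and 1.87 in KO-NTD.

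Genes whose loss is associated with neural tube defects in mice included Pax3 and Marcks besides Neurog2. Pax3, a paired-box factor of the dorsal tube and neural crest, was at 10.1 FPKM in WT, with 8.79 (7.28 to 10.3) in KO-N and 6.82 (5.59 to 8.02) in KO-NTD (-0.56). Marcks, a membrane-bound protein that binds actin, was at 262.0, 284.9 (237 to 333) and 205.1 (173 to 237) (-0.35). KO-N lay above WT for Marcks and below it for Pax3, with the WT value inside the KO-N bounds in both genes. Of 32 genes of the neural crest and head mesenchyme, 15 were in the sheet, 10 lower and 5 higher. Tfap2b (8.73 to 4.84 FPKM), Sox10 (8.47 to 5.97) and the receptor Ngfr (7.05 to 5.04) of the crest were lower, as were Barx1 (4.08 to 2.74) and Sox8 (1.87 to 1.15). Axon guidance genes were in the sheet in 14 of 46 cases, 11 lower and 3 higher, with Dcc, the netrin receptor, at 1.22 FPKM in WT and 0.709 in KO-NTD and Draxin at 4.28 and 2.81.

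**Figure D2:**
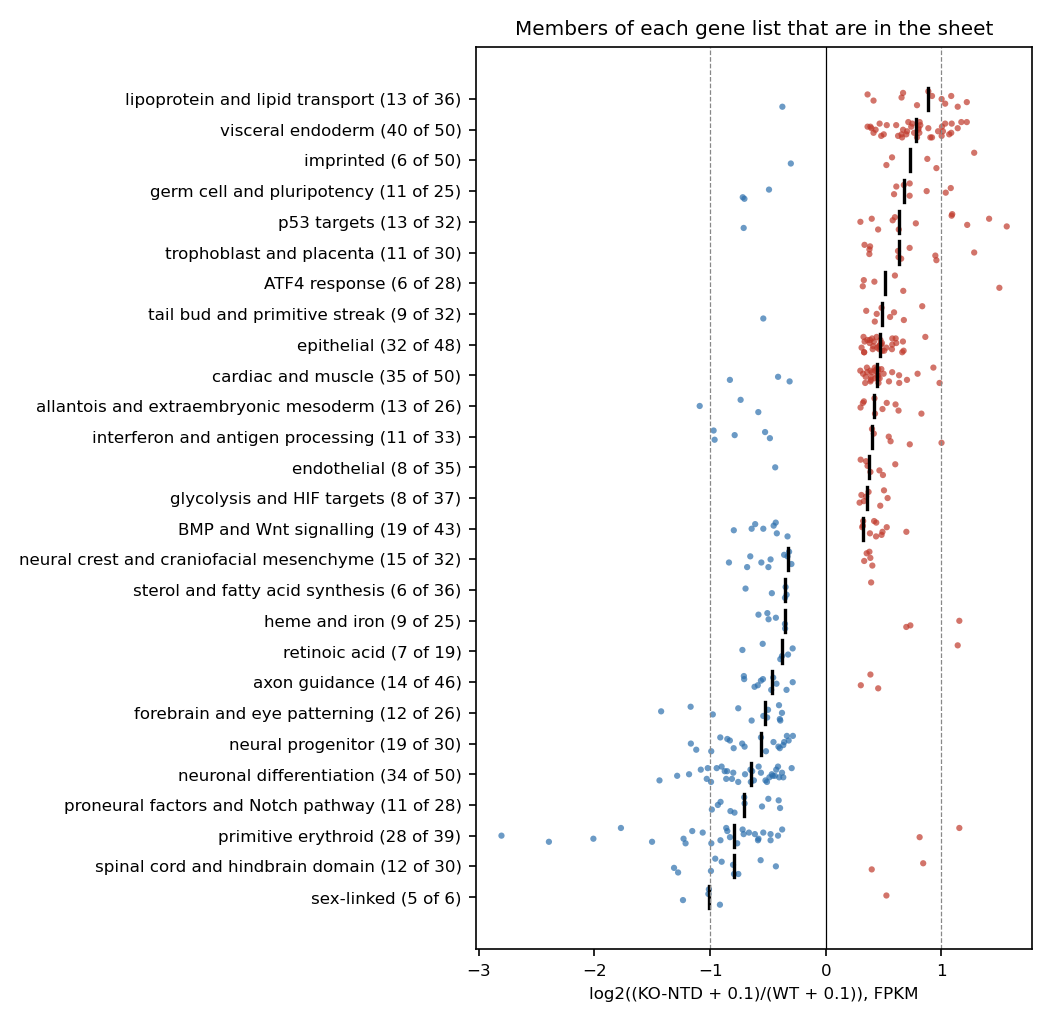
Log2((KO-NTD + 0.1)/(WT + 0.1)) of the members of each gene list that are in the sheet (x axis), 1 point per gene, with higher genes in red, lower genes in blue and the list median as a black bar. Numbers in parentheses give members in the sheet of those in the table, and dashed lines mark 2-fold. The neuronal and neural progenitor members all lie on the lower side, the visceral endoderm and epithelial members all on the higher side, and the BMP and Wnt members on both.

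Visceral endoderm genes formed the largest set of higher genes. This epithelium of the yolk sac and early gut secretes lipoproteins and serum proteins and takes up nutrients for the embryo. Among 50 measured genes, 40 were in the sheet, 40 higher and 0 lower, with a median of 0.78. Their summed level was 223.8 FPKM in WT, with 147.2 in KO-N and 379.3 in KO-NTD, so KO-N lay below WT and KO-NTD above it. KO-N was below WT in 34 of the 40 genes.

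Apoa1, the main protein of HDL, was at 9.14 FPKM in WT, with 1.91 (1.25 to 2.56) in KO-N and 21.4 (17.3 to 25.5) in KO-NTD. Ttr, transthyretin, was at 13.2, 3.85 (2.70 to 4.99) and 28.2 (22.8 to 33.5). Rbp4, the plasma retinol carrier, was at 12.7, 6.47 (4.76 to 8.18) and 28.2 (22.6 to 33.6). In all 3 the WT value lay between the KO groups and outside the bounds of each. Fga and Fgg, fibrinogen chains encoded side by side on chromosome 3, were at 0.387 and 0.596 FPKM in WT, 0.0936 and 0.291 in KO-N and 0.996 and 1.36 in KO-NTD. Amn, which anchors the endocytic receptor cubilin at the cell surface, was at 1.201, 0.249 (0.0915 to 0.406) and 2.66 (1.93 to 3.38).

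Among 36 measured lipoprotein genes, 13 were in the sheet, 12 higher and 1 lower, with a median of 0.89. All 12 higher genes are in the visceral endoderm list as well. They repeat that result and are not a second class of genes. Apob, the structural protein of larger lipoproteins, was at 4.65 FPKM in WT, with 0.904 (0.702 to 1.11) in KO-N and 7.38 (6.02 to 8.71) in KO-NTD. Apoe was at 34.5, 28.1 (23.5 to 32.8) and 54.8 (46.3 to 63.1), and Apom, an HDL protein, at 5.74, 1.55 and 11.6. The entry Apoc2,Apoc4-apoc2 was at 4.09, 0.310 and 8.46, and Apoa4, beside Apoa1 on chromosome 9, at 1.58, 0.160 and 3.01. Cubn, cubilin, was at 3.59, 0.509 (0.367 to 0.650) and 6.27 (5.12 to 7.41). Soat2, which esterifies cholesterol for lipoprotein assembly, was at 1.03, 0.896 and 2.04. KO-N was below WT in 13 of these 13 genes. Abca1, the cholesterol exporter that loads HDL, was the 1 lower member, at 2.83 FPKM in WT, with 2.21 in KO-N and 2.16 in KO-NTD, and was chosen for naming after its values were seen. Members outside the sheet included the multiligand receptor Lrp2, at 6.12 FPKM in KO-N and 8.90 in KO-NTD, and the lipid transfer protein gene Mttp, at 3.22 and 4.86, for which the sheet gives no WT value.

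**Figure D3:**
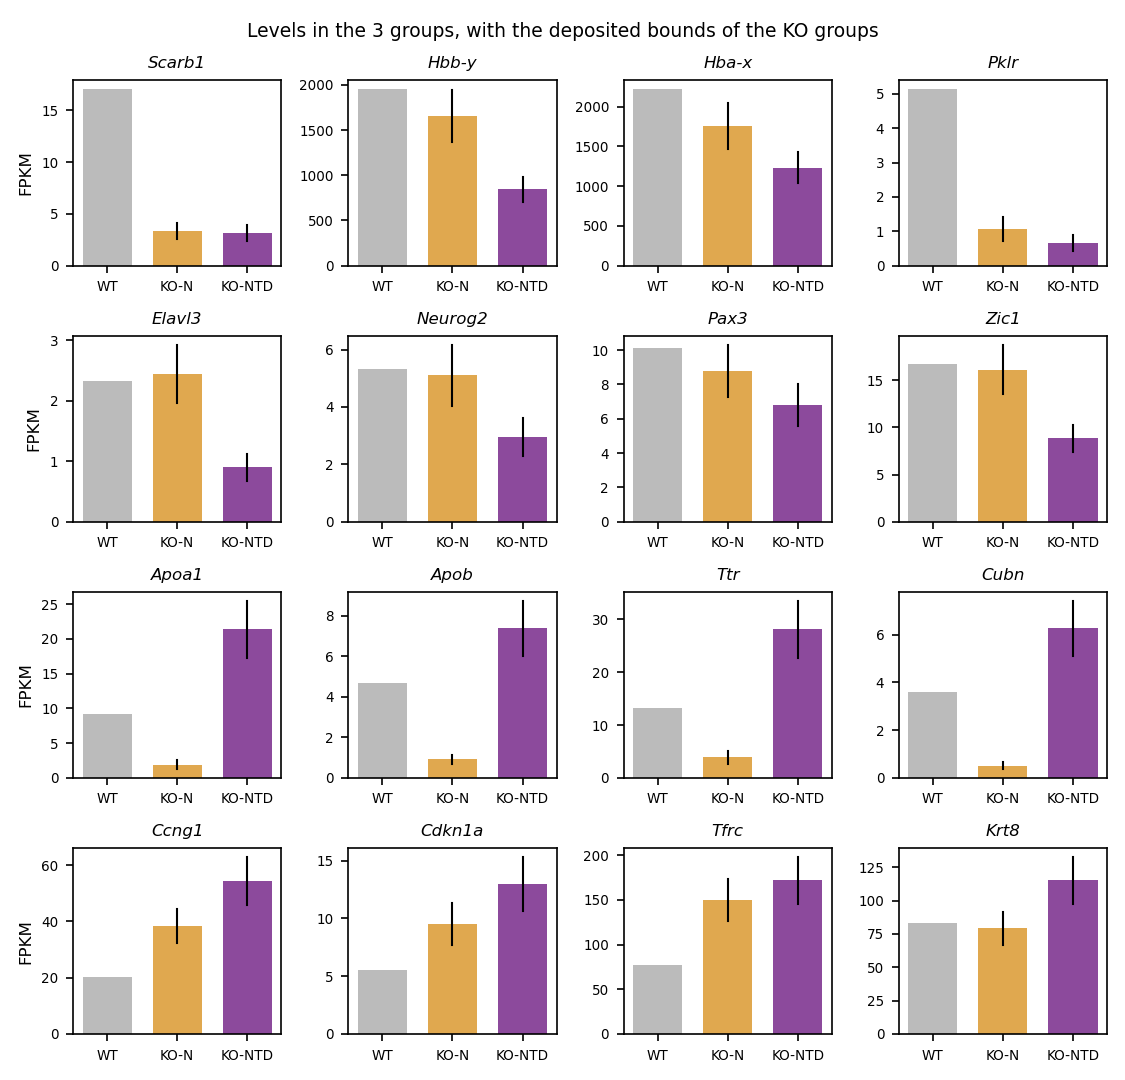
FPKM (y axis, from 0) of 16 selected genes in the 3 groups (WT, KO-N and KO-NTD), with the deposited confidence bounds of the KO groups as vertical lines. The neural genes Elavl3, Neurog2 and Zic1 have a low bar only in KO-NTD, Apoa1, Apob, Ttr and Cubn are lowest in KO-N and highest in KO-NTD, Ccng1 and Cdkn1a are lowest in WT and highest in KO-NTD, and Scarb1 and Pklr are low in both KO groups.

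Some markers of other tissue outside the embryo proper were higher as well. Of 30 trophoblast and placental genes, 11 were in the sheet, 11 higher and 0 lower, with a median of 0.63 and summed levels of 81.2 FPKM in WT, with 81.9 in KO-N and 136.7 in KO-NTD. Much of these sums came from Hand1 (33.2, 35.7 and 51.4) and Phlda2. Hand1 is counted again with the allantois and extraembryonic mesoderm, and Dlx3 with the neural crest. The list is therefore not of tissue outside the embryo alone. Phlda2, an imprinted gene that restrains placental growth, was at 16.4, 13.8 (10.6 to 17.0) and 40.1 (33.3 to 46.9). Ascl2 and Esx1, placental factors, stayed under 0.5 FPKM in each group, Plac1 was at 5.67, 5.07 and 8.96 and Rhox5 at 3.13, 2.24 and 5.25. The defining markers of giant cells and spongiotrophoblast were low in the KO groups and not in the sheet: Prl3d1 at 1.56 FPKM in KO-N and 1.01 in KO-NTD, Prl3b1 at 0.858 and 0.515, and Tpbpa at 0 in both. The bounds of the KO groups overlapped for both Prl genes (0.788 to 2.33 and 0.422 to 1.59 for Prl3d1, 0.366 to 1.35 and 0.165 to 0.864 for Prl3b1), and no WT value is given for them. The amount of yolk sac or placental tissue left in each pool is not given in the labels, and its part in the visceral endoderm, lipoprotein and trophoblast values was not tested.

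Imprinted genes, which are expressed from 1 parental copy, were in the sheet in 6 of 50 cases, 5 higher and 1 lower. Xist, described above with the Y-linked genes, is counted among the higher ones (58.3 FPKM in WT and 83.8 in KO-NTD). It is in the sex-linked list too and its level depends on the sex of the cells. Its value is therefore not read as a result about imprinting. Phlda2 and Slc22a18 (0.425 to 0.865 FPKM) are neighbours on chromosome 7. Dio3, which inactivates thyroid hormone, was at 1.07 and 1.64. Kcnq1ot1, the noncoding RNA of the same chromosome 7 domain, was the lower one, at 1.80 and 1.44. Germ cell and pluripotency genes were in the sheet in 11 of 25 cases, 8 higher and 3 lower, with Trap1a (1.21, 0.470 and 2.58 FPKM in WT, KO-N and KO-NTD), Fmr1nb (0.591, 0.249 and 1.36) and Tdh (1.53, 0.674 and 2.89) showing the order seen in Apoa1. KO-N was below WT in 11 of the 11.

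Targets of p53, the factor that stops division or starts death after DNA damage and other stress, were higher in 12 of 32 genes and lower in 1, with a median of 0.63. Ccng1, cyclin G1, was at 20.4 FPKM in WT, with 38.5 (32.4 to 44.6) in KO-N and 54.4 (45.8 to 62.9) in KO-NTD. Cdkn1a, the cell cycle inhibitor p21, was at 5.51, 9.51 (7.67 to 11.4) and 13.0 (10.7 to 15.3). Eda2r, a death receptor of the ectodysplasin family, was at 2.16, 3.98 (3.02 to 4.95) and 6.58 (5.19 to 7.95). In these 3 genes KO-N lay between WT and KO-NTD, and WT lay below the bounds of both KO groups. Phlda3, an inhibitor of Akt, was at 5.35, 9.21 and 11.5, and Tnfrsf10b, the TRAIL receptor, at 6.31, 8.25 and 10.9. Cdkn2a, a regulator of p53 more than a target, was at 0.234, 0.145 and 0.612. Not all targets were in the sheet. Mdm2 was at 19.3 FPKM in KO-N and 20.2 in KO-NTD and Bbc3, encoding Puma, at 3.58 and 3.66, with no WT value in the sheet. Plk3, chosen after its values were seen, was the lower member (2.71, 2.71 and 1.61).

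Stress genes under ATF4 were higher in 6 of 28 and lower in 0, with a median of 0.51. Trib3, a pseudokinase of this response, was at 0.813 FPKM in WT, with 3.09 (2.32 to 3.86) in KO-N and 2.48 (1.84 to 3.12) in KO-NTD. Cebpb was at 1.80, 2.83 and 2.92, Sesn2, a p53 target too, at 6.69, 8.45 and 10.2, and Ddit4, which restrains mTOR, at 22.7, 34.7 and 28.5. Over the 6 genes the KO-N median against WT was 0.47, close in value to that of KO-NTD. Glycolysis and hypoxia genes were higher in 8 of 37 and lower in 0 (median 0.36). The glucose transporter Slc2a3 was at 251.5 FPKM in WT, with 226.9 in KO-N and 364.3 in KO-NTD, Slc2a1 at 316.4, 312.9 and 408.8, and P4ha2, a collagen prolyl hydroxylase, at 12.4, 14.0 and 17.7. Core glycolytic enzymes such as Ldha and Pgk1 were among the 29 not in the sheet.

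Heart and muscle genes were higher in 32 of 50 and lower in 3, with a median of 0.44 and summed levels of 1182 FPKM in WT, with 1359 in KO-N and 1570 in KO-NTD. Nppb, a natriuretic peptide of the heart, was at 4.14, 6.41 (4.59 to 8.22) and 7.98 (5.86 to 10.1). Nkx2-5, the cardiac homeobox factor, was at 6.81, 8.90 and 10.6. Ankrd1, a stretch-responsive muscle protein, was at 18.5, 19.96 and 30.1, and Actc1, cardiac actin, at 314.9, 357.0 and 402.8. Levels were lowest in WT and highest in KO-NTD in each of these, which were named for their large folds. The order did not hold in every listed member: Nppa was at 14.6, 23.6 and 20.2. The 15 members outside the sheet, with no WT value, went both ways between the KO groups. Myl2 was at 70.1 FPKM in KO-N and 61.1 in KO-NTD, and Myh6 at 30.2 and 32.7. Abra was at 0.712, 0.794 and 1.51 and Actg2 at 0.974, 1.196 and 1.76. Myh3, an embryonic myosin, was lower, at 0.376, 0.320 and 0.168.

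Epithelial genes were higher in 32 of 48 and lower in 0 (median 0.47). Krt8, a keratin of simple epithelia, was at 83.1 FPKM in WT, with 79.2 (66.7 to 91.8) in KO-N and 115.1 (97.3 to 132.5) in KO-NTD, and Cldn6, a tight junction protein, at 41.9, 43.8 and 63.7. KO-N lay near WT in both. Tmprss2, a membrane protease, was at 3.56, 2.59 and 5.74, Bspry at 1.05, 1.15 and 1.72, Kdf1 at 1.69, 2.01 and 2.63, and Rab17 and Ovol1 at under 1 FPKM throughout. Endothelial genes were in the sheet in 8 of 35 cases, 7 higher and 1 lower, with Etv2, which specifies blood and vessel precursors, at 3.17, 2.34 and 4.86, Epas1 at 6.23, 6.99 and 8.81, and Vash1 lower at 15.7, 14.4 and 11.5.

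Posterior and patterning genes moved in both directions. Of 32 tail bud and streak genes 8 were higher and 1 lower, with Foxh1 at 3.71 FPKM in WT, with 3.25 in KO-N and 5.64 in KO-NTD and Fgf3 at 2.22, 2.15 and 3.31. Of 26 allantois and extraembryonic mesoderm genes 10 were higher and 3 lower. Tbx4, of allantois and hindlimb, was at 3.60, 3.38 and 6.46 and Hand1 at 33.2, 35.7 and 51.4, whereas the lower ones were the 5′ Hoxd genes Hoxd10 (3.34, 3.74 and 1.96), Hoxd11 (2.29, 2.68 and 1.02) and Hoxd13 (2.09, 2.29 and 1.36). Of 43 BMP and Wnt genes 11 were higher and 8 lower, among them the R-spondins Rspo1 (3.87 to 2.50) and Rspo2 (1.97 to 1.09), lower, and Sfrp5 (5.17 to 8.43) and Wnt2 (7.55 to 10.9), higher. Retinoic acid genes were lower in 6 of 19 and higher in 1, Rbp4. Of the degrading enzymes, Cyp26b1 (9.06 to 6.18) and Cyp26c1 (9.29 to 5.598) were lower. Cyp26a1 was not in the sheet, at 6.68 FPKM in KO-N and 8.35 in KO-NTD, with no WT value.

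Sterol and fatty acid synthesis genes, many of them under the SREBP factors that respond to cellular cholesterol, were lower in 5 of 36 and higher in 1 (median -0.35). Scd1 was at 32.5 FPKM in WT, with 26.8 in KO-N and 20.04 in KO-NTD, and Scd2 at 322.5, 298.0 and 255.0. Fdps, of the mevalonate pathway, was at 77.1, 75.6 and 60.6, and Idh1, a source of NADPH, at 42.1, 41.6 and 30.4. Interferon and antigen processing genes were split, 6 higher and 5 lower of 33, with Slfn9 lower (3.73, 2.27 and 1.86) and Bst2 higher (1.61, 2.26 and 2.73). Of 14 macrophage genes only Mrc1 was in the sheet, under 1 FPKM in each group.

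Some of the listed genes lie side by side in the genome. Among loci within 50 kb of each other, 56 pairs of listed genes were found, 43 with the same direction and 13 with opposite directions. Such pairs were not counted over all expressed genes, so these counts are not read as a result about neighbours. Pairs with the same direction included Hbb-y and Hbb-bh1, Apoa1 and Apoa4, Krt8 and Krt18, Six3 and its antisense Six3os1, and Foxf1 and the divergent Fendrr, all chosen after their values were seen. The sources used here do not say whether counting used the strand of the reads. Opposite pairs, such as Slc2a1 (0.37) and Ermap (-0.38), also occurred. Counted by gene family, chosen after the names were seen, Sox genes were in the sheet in 8 of 16 expressed cases (1 higher, 7 lower), Pax genes in 4 of 8 (0 higher, 4 lower), Gata genes in 4 of 6 (4 higher, 0 lower) and solute carriers in 24 of 221 (19 higher, 5 lower). Of ribosomal protein genes 0 of 80 were in it, of proteasome genes 0 of 45 and of respiratory complex I genes 0 of 44. Over all 13569 expressed genes 2.51% were listed higher and 2.76% lower. At these shares only a few members of families of this size would be listed, so the absence is not read as a result. Loci of lower genes were longer, with a median span of 33.8 kb, against 16.3 kb for higher genes and 25.3 kb for all expressed genes.

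The sheet also lists 2 microRNA genes, each at 0 in 1 group, so no fold is given. Mirlet7e was at 0 FPKM in WT and KO-N and at 16.0 in KO-NTD, and Mir6382 at 33.5 in WT, with 6.20 in KO-N and 0 in KO-NTD. The mature products, whose shortness lies outside what poly-A libraries are made to capture, are shown with the seed (bases 2 to 8) in capitals, from RefSeq on GRCm38.p6, to show which microRNAs these entries name.
mmu-let-7e-5p (chr17:17830366-17830387, plus strand): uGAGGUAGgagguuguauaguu
mmu-miR-6382 (chrX:106309909-106309932, plus strand): uGGAAUGUaaagagagcacacaag
The seeds differ, the first being that of the let-7 family.

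Set side by side against the same WT pools, the KO groups gave different medians for several lists. KO-N and KO-NTD share the WT libraries in these values, and the genes were selected on WT and KO-NTD, so agreement or disagreement between them is a description only. For the visceral endoderm members the median was -0.86 in KO-N and 0.78 in KO-NTD. For lipoprotein genes, whose higher members are all in both lists, it was -1.82 and 0.89. For neuronal genes it was -0.01 and -0.65, for neural progenitor genes -0.05 and -0.56, and for epithelial genes 0.08 and 0.47. These lists were near WT in KO-N except for the first pair. For primitive red cell genes it was -0.32 in the 27 members with a KO-N value and -0.80 in all 28, for p53 targets 0.29 and 0.63, and for heart genes 0.19 and 0.44. Over all higher genes the KO-N median was 0.12, with 256 above WT and 110 below, and over all lower genes -0.10, with 104 above and 317 below. KO-N lay beyond KO-NTD, away from WT, for 10 higher genes, Trib3 and Ddit4 among them, and for 12 lower genes.

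**Figure D4:**
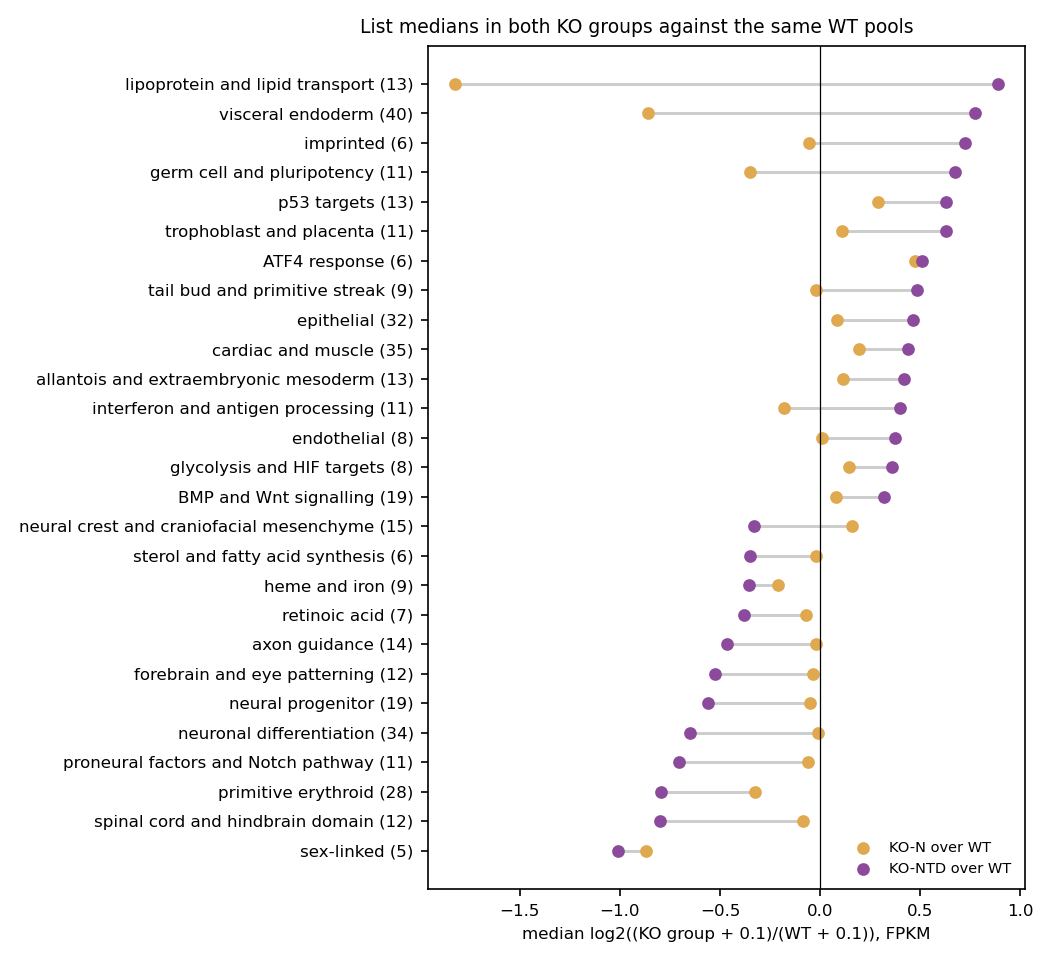
Median of log2((KO group + 0.1)/(WT + 0.1)) over the members of each list in the sheet (x axis), with KO-N in orange and KO-NTD in purple, both against the same WT values. Numbers in parentheses give the members in the sheet. Visceral endoderm and lipoprotein lists, which share members, lie on opposite sides of 0 in the KO groups. Neuronal lists lie near 0 in KO-N, and the sex-linked and ATF4 lists lie close together.

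The 371 genes that fall in a list leave 418 in none, 172 higher and 246 lower. The largest decreases among these at 1 FPKM or more were those of Wfdc1, a secreted protease inhibitor-like protein (1.76 FPKM in WT, with 1.14 in KO-N and 0.346 in KO-NTD), and Chrna3, a nicotinic receptor subunit (1.05, 0.862 and 0.356), besides Scarb1 and Pantr1. Wfdc1 and Chrna3 were both lowest in KO-NTD.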

How the data were processed

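Poly-A RNA of 9 embryo pools (3 WT, 3 KO-N and 3 KO-NTD) was sequenced on strand-specific libraries. According to the processing notes and methods the authors aligned reads to mm10 with TopHat2 (0.7) and estimated and compared FPKM with Cufflinks (2.2.1). The annotation used was not given in the sources used here, and the files carry no depth per pool. The deposited files hold FPKM, 1 value per group over its 3 pools: a comparison sheet for each of 3 pairs of groups, with the selected genes only, and a table of all genes, with confidence bounds. The sheets also hold the authors' fold changes, test values, p and q, which were not used. The table's Control column and its bounds, 3 columns, could not be tied to WT and were not used. The planned limma fit could not be run on 1 value per group, so no test is given.

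From the sheet, log2((KO-NTD + 0.1)/(WT + 0.1)) was computed for 789 genes with Python 3.11.15 and pandas 2.3.3, tested on simulated data. KO-N values and bounds come from the table, whose KO-NTD values differ from those of the sheet by a ratio of 1.001 to 1.003 over the 787 genes matched by name with a value above 0 (the joined Hba-a1,Hba-a2 entry matched none). Of 24357 rows, 27 with a date as name were left out. Locus starts are written from 1. Named are Scarb1, sex-linked genes, genes the study singled out, the 15 largest folds at 1 FPKM or more and 5 largest FPKM differences per direction, and up to 6 per list. The 29 lists and the families were chosen with names and earlier results of these data known, so the share of a list found in the sheet is raised by that choice. Alternatives were pseudocounts, a filter, another size and the table's values. A few genes that this rule names are not reported here.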

Additional observations from a re-analysis of the deposited data

How the results depend on the processing

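No paired analysis was possible because the files hold 1 value per group, not per pool, and leaving out each pool was not run for the same reason. The count of genes at least 2-fold different depended on the settings. It was 25 higher and 47 lower with a pseudocount of 0.1, 9 and 10 with a pseudocount of 1, and 44 and 71 with 0.01, since low genes shrink as the pseudocount grows. At 1.5-fold the counts were 142 and 190. With KO-NTD set at its bound nearest to WT, chosen after seeing the data, they were 5 and 9. Without the visceral endoderm, lipoprotein, primitive erythroid, heme and sex-linked lists 14 higher and 35 lower genes remained. A filter of 1 FPKM in 1 group left 20 and 35, and the table's KO-NTD values gave 23 and 46. The listed genes numbered 327 higher and 358 lower under the filter. Of 115 recomputed list medians, 115 kept their sign and 112 moved by less than the typical half-width of the KO-NTD bounds. A pseudocount cannot turn the sign of a gene, and the table's KO-NTD values are nearly those of the sheet. The kept signs were thus largely fixed in advance and are no support for the medians. With a pseudocount of 1 the medians of the trophoblast (0.33), imprinted (0.37) and macrophage (0.30) lists moved by more.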
